A study of Ovis aries with 49 samples.

Results

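HIF1A, VEGFA, NRP1 and VWF were followed across the adipose depots of young sheep as genes of the response to low oxygen and of blood vessels. They were picked by gene symbol, with no threshold on their values, though with earlier results of these data known. Each was read by 1 probe set, so they are 4 of the 9780 probe sets that carry 1 gene symbol among 10273 with deposited values. No gene symbol repeats among the 9780, and a gene is called measured where it has a deposited value. Any further probe sets of the array for these genes could not be seen. The probe sets are 200989_at for HIF1A, 210512_s_at for VEGFA, 210510_s_at for NRP1 and 202112_at for VWF.

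HIF1A encodes the oxygen-regulated subunit of hypoxia-inducible factor 1, a transcription factor whose alpha subunit is hydroxylated and degraded while oxygen is plentiful, so that its control is largely at the level of protein and not of RNA. When stabilised, it pairs with ARNT and turns on genes of glycolysis, red cell production and vessel growth, VEGFA among them. VEGFA is the main secreted growth factor of endothelial cells and acts through the tyrosine kinase receptors KDR and FLT1, with the neuropilin NRP1 as a coreceptor that also binds class 3 semaphorins. VWF, the von Willebrand factor, is made by endothelial cells and megakaryocytes, binds platelets at sites of injury and is widely used to mark vessels. Adipose tissue is densely supplied with capillaries, and its brown form has the richest supply.

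Total RNA of epicardial, omental, perirenal, sternal and subcutaneous fat of lambs, taken at 28 and at 7 days of age, was hybridised to human expression arrays. The study's methods describe a larger amount of tissue for RNA at the later age, so tissue amount and age cannot be told apart. Each of the 10 groups of depot and age held 5 arrays, except subcutaneous fat at 7 days with 4, which makes 49 arrays, 25 at 28 days and 24 at 7 days. The lambs were twins of Bluefaced Leicester cross Swaledale ewes, 1 of each pair being sampled at the earlier age and its twin at the later. The ewes of the study ate roughage and concentrate, some with canola oil added. All 49 titles carry the same letter C, which the labels do not explain, so the diet behind the arrays is not stated here. Letters stand for the replicate numbers of the titles, with H to O used for the later age and A to G for the earlier. The numbers are not defined as animals in the labels and none occurs at both ages. A description shared by all samples names another span of ages than the age field, which was used here. The study's methods describe 5 animals for each depot, so that the arrays of a group should be separate lambs and the depots of an age should share lambs. The numbers, 8 at 28 days and 7 at 7 days, do not state which arrays share one, and the fits treat arrays as separate. The number of arrays limits the precision.

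Levels are log2 expression values, so that a difference of 1 is a doubling, and the values of a group are given in the order of its letters. Over the whole table they ran from 2.49 to 14.04, and 82.7% of values were below 4, where a gene little expressed and sheep RNA binding poorly to a human probe cannot be told apart. Among 15 adipocyte markers 11 were measured, and the highest were DGAT2, which makes triglyceride, and SCD, which desaturates fatty acids. FABP4, a defining adipocyte marker, lay between 2.49 and 3.18 on all arrays, near the lowest signal. The cardiac muscle markers, 7 of 13 measured, averaged 2.79 to 8.45 on the epicardial arrays at 28 days and 6.08 to 8.63 at 7 days, and the muscle creatine kinase gene CKM was above 4 on 4 of 10 sternal and 5 of 9 subcutaneous arrays as well. In sternal fat at 28 days the mean over all probe sets was 3.25 to 3.30 per array, below the 3.38 to 3.44 of the other depots at that age. In omental fat this mean was 3.40 to 3.43 at 28 days against 3.28 to 3.31 at 7 days. In subcutaneous fat it was 3.38 to 3.42 against 3.30 to 3.32, and its rise was smaller in epicardial and perirenal fat. These facts stand beside the results they touch. As the samples were whole tissue, fewer cells of a type and less RNA per cell cannot be told apart.

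**Figure D1:**
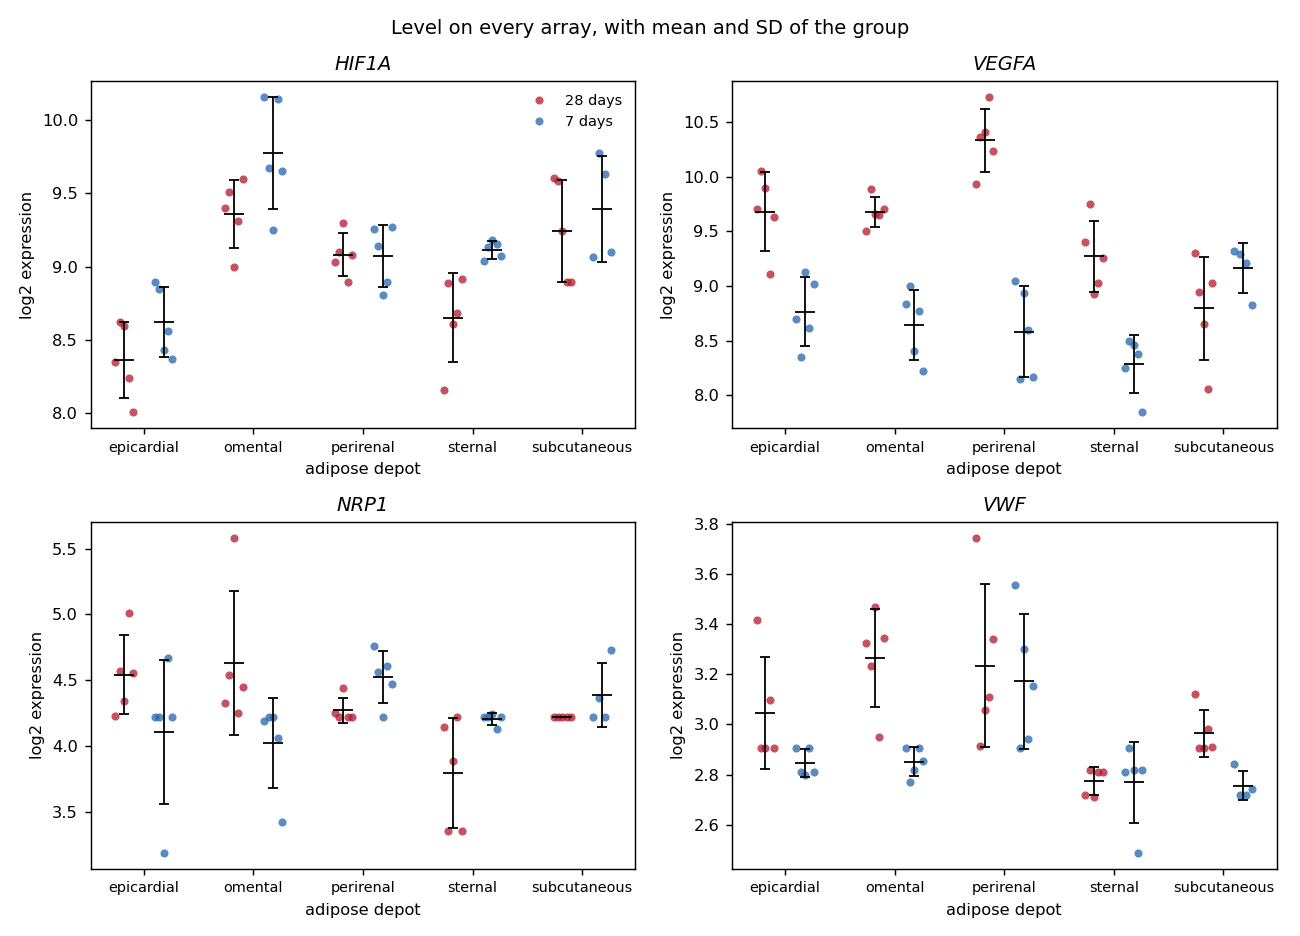
Log2 expression of HIF1A, VEGFA, NRP1 and VWF (vertical axes, each on its own scale) on every array of the 5 depots, 28 days in red and 7 days in blue, with the group mean and SD in black. HIF1A and VEGFA lay between 7.85 and 10.73, whereas NRP1 and VWF lay between 2.49 and 5.58, and VEGFA stood higher at 28 days in every depot except subcutaneous fat.

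HIF1A was among the brightest signals of the table, with a mean of 9.06 that exceeded 98.6% of probe sets, and it differed between the depots at both ages. It was lowest in epicardial fat and highest in omental fat. At 28 days the epicardial arrays read 8.35, 8.62, 8.60, 8.24 and 8.01, against 9.40, 9.51, 9.0, 9.31 and 9.60 in omental fat. At 7 days they read 8.90, 8.85, 8.43, 8.56 and 8.37 in epicardial fat, against 10.16, 9.67, 9.25, 10.15 and 9.65 in omental fat. At neither age did these groups overlap, as for 2.63% of probe sets at 28 days and 0.808% at 7 days. Epicardial minus omental fat was -1.0 ± 0.16 at 28 days (SE, adjusted p = 0.000867, limma) and -1.15 ± 0.16 at 7 days (adjusted p = 0.000163), and 1.97% and 0.818% of all probe sets were called lower in these comparisons.

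Set against the mean of the other depots, HIF1A in epicardial fat was lower by the same amount at both ages, with differences of -0.72 ± 0.13 at 28 days (adjusted p = 0.00166) and -0.72 ± 0.13 at 7 days (adjusted p = 0.0018). Such falls were uncommon, with 0.506% of probe sets called lower at 28 days and 0.720% at 7 days. Omental fat was higher by 0.53 ± 0.13 at 28 days (adjusted p = 0.0167, 4.76% of probe sets called higher) and by 0.72 ± 0.13 at 7 days (adjusted p = 0.00523, 0.565% called higher). Sternal fat at 28 days was lower by -0.36 ± 0.13 (adjusted p = 0.0486), where 18.4% of all probe sets were called lower. The F test over the 5 depots called HIF1A at 28 days (adjusted p = 0.000335, 20% of probe sets called) and at 7 days (adjusted p = 0.001, 8.16% called).

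In epicardial fat HIF1A was low and the cardiac markers were high on most arrays. The part of these markers in the HIF1A level was not tested. On epicardial array I at 28 days CKM was 2.76, near the lowest signal, and HIF1A was 8.35, within the range of the other 4 epicardial arrays of that age, on which CKM was 6.82 to 10.53. The omental call at 28 days is lost without omental array J or O (largest adjusted p = 0.0635), and the sternal one without any of 17 of the 25 arrays. Under quantile normalization the sternal difference was -0.15 (adjusted p = 0.481), and with the replicate number as a block -0.31 (adjusted p = 0.0871).

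In order of level at 28 days, HIF1A was 9.36 ± 0.23 in omental, 9.25 ± 0.35 in subcutaneous, 9.08 ± 0.15 in perirenal, 8.65 ± 0.30 in sternal and 8.36 ± 0.26 in epicardial fat (SD, n = 5 each). At 7 days the order was omental with 9.78 ± 0.38, subcutaneous with 9.39 ± 0.36, sternal with 9.12 ± 0.06, perirenal with 9.07 ± 0.21 and epicardial with 8.62 ± 0.24 (SD, n = 5 each, 4 in subcutaneous fat). No neighbours in either order were called apart. Sternal fat stood above perirenal fat at 7 days and below it at 28 days.

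Averaged over the depots, HIF1A was lower at 28 than at 7 days by -0.26 ± 0.07 (adjusted p = 0.00864, limma), a change that 4.85% of probe sets showed in the same direction. No single depot was called. The difference nearest to a call was that of omental fat, -0.41 ± 0.17 (adjusted p = 0.0875), followed by sternal fat with -0.46 ± 0.17 (adjusted p = 0.0932). In sternal fat the arrays read 8.16, 8.89, 8.61, 8.69 and 8.91 at 28 days, against 9.04, 9.13, 9.18, 9.16 and 9.07 at 7 days. Every sternal array at 28 days lay below every one at 7 days, as did those of 2.20% of probe sets, and the exact two-sided permutation test gave p = 0.00794, the smallest that 5 against 5 arrays allow and 1 of 20 such tests made. Epicardial fat differed by -0.26, subcutaneous fat by -0.15 and perirenal fat by 0.01, the last turning to -0.24 under quantile normalization. The change did not differ detectably between the depots (F test, adjusted p = 0.523).

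Of 21 HIF subunits and regulators, 16 were measured and 6 had a mean of at least 4. Averaged over the depots, 5 were higher and 3, HIF1A included, were lower at 28 days, where 20.6% of all probe sets were called higher and 4.85% lower, with a median difference of 0.05 beside 0.03 over all probe sets. CITED2, which competes with HIF1A for the coactivator EP300, rose by 0.43, and EP300 itself by 0.25. ARNT, the partner of HIF1A, rose by 0.33 on average and by 0.76 in omental fat, from a mean level of 2.87. The elongins ELOC and ELOB, which belong to the ubiquitin ligase that removes HIF1A, fell by 0.32 and 0.14. EPAS1, the other main alpha subunit, had a mean of 2.64 and was not called in any comparison between ages or of 1 depot with the others.

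VEGFA carried the largest change with age of the 4 genes. It was higher at 28 days in epicardial, omental, perirenal and sternal fat and not in subcutaneous fat. In perirenal fat it read 9.93, 10.36, 10.41, 10.73 and 10.23 at 28 days, against 9.04, 8.15, 8.93, 8.60 and 8.17 at 7 days. The groups did not overlap, and every array at 28 days stood above every one at 7 days, as for 6.32% of probe sets. The difference was 1.75 ± 0.20 (SE, adjusted p = 3.71e-08, limma), or 3.37-fold. Of all 10273 probe sets 6.23% were called higher in perirenal fat, 2 rose by more than VEGFA, and among the 290 with a mean of at least 8 none did.

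In omental fat VEGFA read 9.51, 9.88, 9.66, 9.65 and 9.71 at 28 days, against 8.84, 9.0, 8.40, 8.77 and 8.22 at 7 days. The omental groups did not overlap either, as for 11.2% of probe sets, and the difference was 1.03 ± 0.20 (adjusted p = 0.000275), where 13.5% of probe sets were called higher. Sternal fat gave 9.41, 9.75, 8.92, 9.03 and 9.26 at 28 days, against 8.25, 8.49, 8.46, 8.38 and 7.85 at 7 days. With no overlap again, as for 1.33% of probe sets, sternal VEGFA rose by 0.99 ± 0.20 (adjusted p = 0.000757, 2.47% of probe sets called higher). Epicardial fat gave 9.71, 10.05, 9.90, 9.11 and 9.63 at 28 days, against 8.70, 8.35, 9.13, 8.62 and 9.02 at 7 days. Here array N at 28 days lay below array D at 7 days, and the rise was 0.92 ± 0.20 (adjusted p = 0.00269, 4.21% of probe sets called higher), with adjusted p = 0.0552 when the 2 epicardial groups were fitted alone.

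In subcutaneous fat VEGFA read 9.30, 8.94, 8.65, 8.06 and 9.03 at 28 days, against 9.32, 9.29, 9.21 and 8.83 at 7 days. These groups overlapped. The difference of -0.37 ± 0.21 was not called (95% interval -0.80 to 0.06, adjusted p = 0.326). The exact two-sided permutation test, which does not rest on the spread of other groups, gave p = 0.00794 in omental, perirenal and sternal fat, p = 0.0159 in epicardial fat and p = 0.19 in subcutaneous fat.

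**Figure D2:**
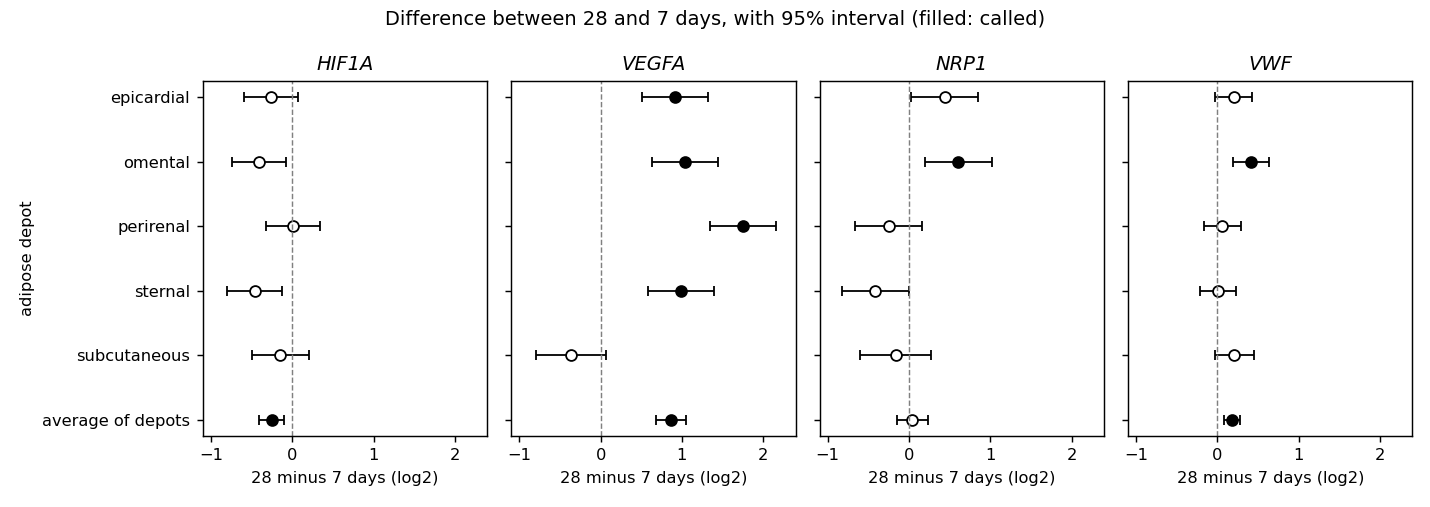
Difference in log2 expression between 28 and 7 days (horizontal axes, 28 minus 7 days) in each depot and averaged over the depots, with the 95% interval of the limma fit, filled where called at an adjusted p of at most 0.05. VEGFA was called higher in 4 depots, with 1.75 in perirenal fat and -0.37, not called, in subcutaneous fat, and HIF1A averaged -0.26.

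The change of VEGFA with age itself differed between the depots (F test, adjusted p = 7.96e-05, 9.17% of probe sets called). In perirenal fat it exceeded the mean change of the other depots by 1.11 ± 0.23 (adjusted p = 0.00569, 0.506% of probe sets called higher). In subcutaneous fat it fell short by -1.54 ± 0.24 (adjusted p = 0.000171, 0.438% called lower). Averaged over the depots with equal weight, VEGFA rose by 0.86 ± 0.09 (adjusted p = 5.65e-10), where 20.6% of probe sets were called higher.

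The order of the depots changed with age. At 28 days VEGFA was 10.33 ± 0.29 in perirenal, 9.68 ± 0.36 in epicardial, 9.68 ± 0.14 in omental, 9.27 ± 0.33 in sternal and 8.80 ± 0.47 in subcutaneous fat (SD, n = 5 each). At 7 days it was 9.16 ± 0.23 in subcutaneous, 8.76 ± 0.32 in epicardial, 8.65 ± 0.32 in omental, 8.58 ± 0.42 in perirenal and 8.29 ± 0.26 in sternal fat (SD, n = 5 each, 4 in subcutaneous fat). No neighbours in these orders were called apart at either age. Subcutaneous fat was thus the highest of the depots at 7 days and the lowest at 28 days.

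At 28 days perirenal VEGFA exceeded the mean of the other depots by 0.98 ± 0.16 (adjusted p = 0.000837, 2.87% of probe sets called higher), and 14 probe sets did so by more. Subcutaneous VEGFA was below the mean of the others by -0.95 ± 0.16 (adjusted p = 0.00139, 0.458% called lower). Perirenal minus subcutaneous fat came to 1.54 ± 0.20 (adjusted p = 7.46e-05, 1.46% called higher) with no overlap of arrays, as for 1.69% of probe sets. At 7 days the F test did not call VEGFA (adjusted p = 0.0666), nor was any depot called against the mean of the others. Of the 10 pairs of depots 1 was called, sternal minus subcutaneous fat with -0.88 ± 0.20 (adjusted p = 0.0347, 0.788% of probe sets called lower). Its arrays did not overlap, as for 1.53% of probe sets. The call was lost with the replicate number as a block (-0.79, adjusted p = 0.0838) and under quantile normalization (-0.66, adjusted p = 0.116). It was also lost without any of 6 single arrays of these groups (largest adjusted p = 0.101). Without the arrays with CKM above 4 the difference was -0.97, with F the only subcutaneous array left.

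**Figure D3:**
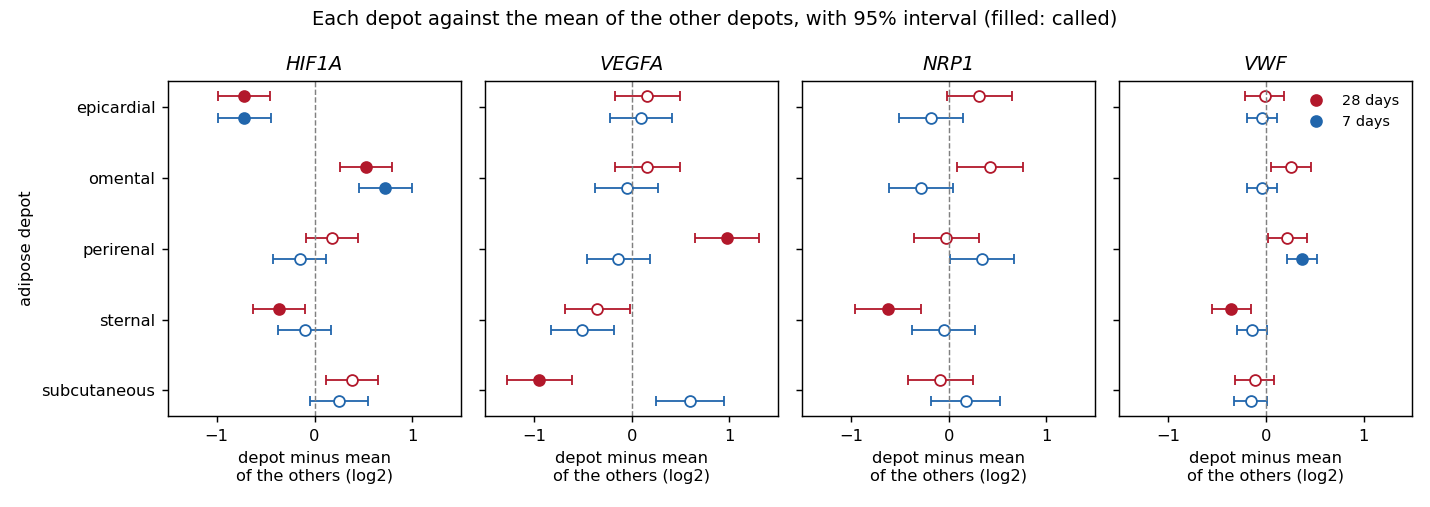
Log2 difference of each depot from the mean of the other 4 (horizontal axes) for the 4 genes, 28 days in red above 7 days in blue, with the 95% interval, filled where called. HIF1A was called low in epicardial fat and high in omental fat at both ages, whereas VEGFA was called only at 28 days, at 0.98 in perirenal and -0.95 in subcutaneous fat.

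Muscle RNA also differed between the subcutaneous arrays. Skeletal muscle markers, 10 of 14 measured, averaged 2.73 to 4.25 per array in subcutaneous fat at 28 days and 2.72 to 7.92 at 7 days, and 7 of them were called lower at 28 days, beside 1.57% of all probe sets. CKM in subcutaneous fat was 2.76, 3.0, 7.11, 4.11 and 2.73 at 28 days, against 12.95, 6.35, 2.77 and 11.71 at 7 days. Array F at 7 days, with CKM at 2.77, had a VEGFA level of 9.21, close to the 9.32 of array A with CKM at 12.95. Array E, with CKM at 6.35, had 9.29, and array G, with CKM at 11.71, had the lowest level of that group, 8.83. At 28 days the arrays J and M, with CKM above 4, had the lowest subcutaneous VEGFA levels, 8.65 and 8.06. Without the arrays of other depots than epicardial in which CKM was above 4, only array F was left in subcutaneous fat at 7 days. At 28 days subcutaneous arrays H, I and N and sternal arrays I and M were left. The subcutaneous shortfall in change was then -1.28 and that in level at 28 days -0.63 (adjusted p = 0.0698). No perirenal array had CKM above 4, so the perirenal rise of 1.75 could not change here. The sternal rise was 0.93. The part of muscle RNA in the VEGFA values was not tested.

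**Figure D4:**
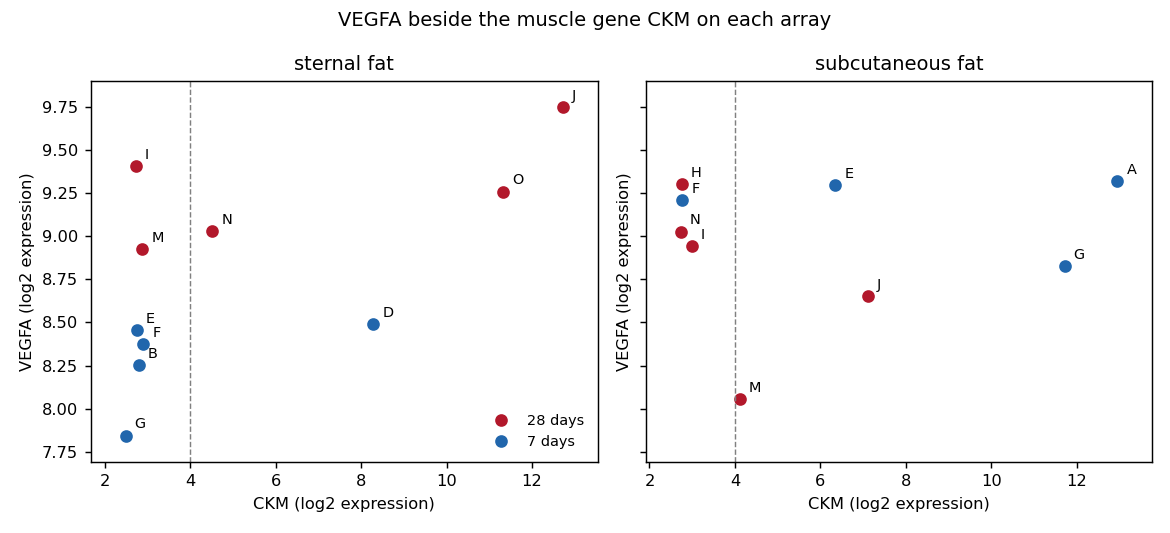
VEGFA (vertical axes) against the muscle gene CKM (horizontal axes), both as log2 expression, on each sternal and subcutaneous array, 28 days in red and 7 days in blue, lettered by replicate, with the level of 4 dashed. Every sternal array at 28 days had a higher VEGFA level than every one at 7 days. Of the sternal arrays at 7 days only D had CKM above 4, at 8.29. Subcutaneous VEGFA at 7 days was 9.21, 9.29, 8.83 and 9.32 in order of rising CKM.

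Brown adipocyte markers, 9 of 15 measured and 4 with a mean of at least 4, also moved with age. Their mean in perirenal fat was 3.29 to 3.63 per array at 28 days and 4.13 to 4.75 at 7 days, in epicardial fat 3.53 to 4.20 and 4.31 to 4.73, and in sternal fat 3.18 to 3.83 and 3.85 to 3.99. In omental fat, where VEGFA rose by 1.03, it was 3.30 to 3.41 at 28 days and 3.26 to 3.67 at 7 days. None of the 9 was called there, where 13.5% of all probe sets were called higher and 1.03% lower. In subcutaneous fat, where the VEGFA change was not called, the mean of these markers was 3.31 to 3.60 at 28 days and 3.31 to 3.87 at 7 days. UCP1, the uncoupling protein of brown fat, was 2.87 to 3.0 in perirenal fat at 28 days, against 5.51 to 8.22 at 7 days. The part of brown adipocytes in the perirenal value was not tested. Fibroblast and progenitor markers, 11 of 12 measured, were higher over the depots in 9 (20.6% of all probe sets) and lower in none. In sternal fat 6 were higher (2.47% of all probe sets), such as the collagen gene COL1A1 with 3.85. Their part in the VEGFA values was likewise not tested.

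Of 41 genes that HIF is known to induce, 22 were measured and 7 had a mean of at least 4. VEGFA was the only 1 of the 22 called in perirenal fat between the ages, where 6.23% of all probe sets were called higher and the median difference was 0.04 beside 0.01 over all probe sets. In omental fat 4 were higher, a share near the 13.5% of all probe sets, among them CXCR4, a chemokine receptor, with 0.85, and KDM3A, a histone demethylase, with 0.46. WSB1, a ubiquitin ligase component, was higher by 2.12 in epicardial and 2.05 in omental fat, and its difference of -0.79 in sternal fat was not called. ALDOA, a glycolytic enzyme, fell by 0.76 in subcutaneous fat. PGK1, also of glycolysis and with a mean of 7.24, differed by -0.94 to 0.85 between the ages and was not called in any depot. VLDLR, a lipoprotein receptor, was higher than in the other depots by 1.34 in epicardial fat at 28 days and by 1.71 at 7 days. In subcutaneous fat at 28 days it was lower by -1.30. Over the depots 4 of the 22 were higher and 1 lower at 28 days, shares near the 20.6% and 4.85% of all probe sets, with a median difference of 0.03, the same as over all probe sets.

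Among the VEGF ligands 4 of 6 were measured, and VEGFA alone was above a mean of 4. VEGFC, the ligand of lymphatic vessels, averaged 3.16 and rose by 0.31 over the depots, with calls in perirenal (0.41) and subcutaneous fat (0.38). VEGFB averaged 2.71 and rose by 0.31 in omental fat, and PGF at 2.57 was not called between the ages.

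NRP1 was detected only weakly, with a mean of 4.27. It took the identical value 4.22 on 20 of 49 arrays, while 20 lay above it and 9 below. Such repeated values were common, 81.7% of all probe sets having one on at least 10 arrays. In omental fat NRP1 read 4.33, 4.54, 5.58, 4.25 and 4.45 at 28 days, against 4.19, 4.22, 4.22, 4.06 and 3.42 at 7 days. The omental groups did not overlap, as for 11.2% of probe sets, and the rise was 0.61 ± 0.20 (adjusted p = 0.0361, 13.5% of probe sets called higher). It was 0.37 without array M of 28 days, whose 5.58 was the highest NRP1 value of all, and 0.46 without array G of 7 days, and was then not called, nor was it without array E of 7 days. Under quantile normalization the omental difference was 0.24 (adjusted p = 0.608).

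Sternal fat had the lowest NRP1 level at 28 days. Its arrays read 4.14, 3.36, 3.89, 4.22 and 3.36, whereas all 5 subcutaneous arrays stood at 4.22 and the epicardial ones at 4.23, 4.57, 4.34, 5.01 and 4.56. Sternal fat differed from the mean of the other depots by -0.62 ± 0.16 (adjusted p = 0.0085, 18.4% of probe sets called lower). The lowest sternal arrays, J and O, were those with CKM at 12.72 and 11.32. Without the arrays with CKM above 4, which left only I and M in sternal fat, the difference was -0.40 (adjusted p = 0.356). Under quantile normalization it was -0.27 (adjusted p = 0.381). The F test over the depots called NRP1 at 28 days (adjusted p = 0.0266) and not at 7 days (adjusted p = 0.364), and the change with age differed between the depots (adjusted p = 0.0339), with the sternal difference at -0.41 and the epicardial at 0.44, neither called. Averaged over the depots the difference was 0.04 (adjusted p = 0.786), or -0.11 under quantile normalization.

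Of the VEGF receptors and coreceptors 8 of 9 were measured, and NRP1 alone had a mean of at least 4. In omental fat 3 were higher at 28 days, NRP1, the semaphorin receptor PLXNA2 (0.47) and its relative PLXND1 (0.20), and none of the 8 was called in any other depot. Calls were more frequent in omental fat at large, with 13.5% of all probe sets called higher there, 7.68% in subcutaneous, 6.23% in perirenal, 4.21% in epicardial and 2.47% in sternal fat. The kinase receptors FLT1 and KDR averaged 3.18 and 2.73, and KDR rose by 0.10 over the depots. Among class 3 semaphorins, the other ligands of neuropilins, 4 of 7 were measured. SEMA3F, which binds NRP2 and opposes vessel growth, was higher at 28 days in all 5 depots, by 0.79 in epicardial, 1.05 in omental, 0.81 in perirenal, 1.00 in sternal and 1.06 in subcutaneous fat, and its change did not differ detectably between them (adjusted p = 0.861). In sternal fat it lay under the mean of the others by -0.78 at 28 days and by -0.86 at 7 days. The other 3 semaphorins had means of 2.56 to 2.92.

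VWF lay near the lowest signal on every array, between 2.49 and 3.75, so its differences are small and their size is no measure of the change in RNA. It took the value 2.91 on 10 of 49 arrays. In omental fat it read 3.33, 3.23, 3.47, 2.95 and 3.34 at 28 days, against 2.91, 2.77, 2.82, 2.91 and 2.85 at 7 days. Without overlap, here too among 11.2% of probe sets, the difference was 0.41 ± 0.11 (adjusted p = 0.00795, 13.5% of probe sets called higher). Quantile normalization left 0.24 (adjusted p = 0.197). In subcutaneous fat all 5 arrays at 28 days, 2.91 to 3.12, also lay above the 2.72 to 2.84 of 7 days, as for 7.02% of probe sets, and the difference of 0.21 was not called (adjusted p = 0.31). Averaged over the depots VWF was higher by 0.18 ± 0.05 (adjusted p = 0.00643), among 20.6% of probe sets, a call that quantile normalization ended (adjusted p = 0.12).

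Between the depots, VWF at 28 days was lowest in sternal fat with 2.72, 2.82, 2.71, 2.81 and 2.81, and the other 20 arrays of that age were all higher. The difference from the mean of the other depots was -0.35 ± 0.10 (adjusted p = 0.0133), where 18.4% of probe sets were called lower and 2.14% had every sternal array below all others. It was -0.22 under quantile normalization (adjusted p = 0.146). At 7 days perirenal fat stood highest with 3.56, 2.91, 3.30, 2.94 and 3.15, above the mean of the others by 0.37 ± 0.07 (adjusted p = 0.00526, 4.58% called higher). The F tests called VWF at 28 days (adjusted p = 0.0239) and at 7 days (adjusted p = 0.0258). Both F calls were lost under quantile normalization, with adjusted p = 0.139 at 28 days and 0.112 at 7 days.

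Most endothelial markers were at low signal. Of 33 endothelial genes 20 were measured, and only CAV1, PROX1 and FLI1 had a mean of at least 4. CAV1, the caveolar coat protein that adipocytes also make, was 8.27 to 8.64 in omental fat at 28 days, against 7.69 to 7.99 at 7 days, a rise of 0.62. Over the depots 11 of the 20 were higher and none lower at 28 days, where 20.6% of all probe sets were called higher and 4.85% lower, with a median of 0.11 beside 0.03 over all probe sets. In perirenal fat 6 were higher (6.23% of all probe sets), led by PTPRB, an endothelial phosphatase, with 0.84 and TAL1, a transcription factor of blood and vessel precursors, with 0.85, and 1 was lower. In sternal and subcutaneous fat none was called between the ages. Sternal fat at 28 days was lower than the other depots in 7 of the 20, where 18.4% of all probe sets were called lower, with a median of -0.15 beside -0.07 over all probe sets.

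PROX1, the factor that sets lymphatic fate and that heart muscle also makes, stood in epicardial fat above the mean of the others by 1.04 at 28 days and by 1.73 at 7 days. The part of the cardiac muscle markers in this difference was not tested. Of 10 measured genes of angiopoietin, Notch and ephrin signalling 4 were higher and none lower over the depots, beside 20.6% and 4.85% of all probe sets. JAG1, a Notch ligand with a mean of 5.28, was higher by 0.66 in epicardial, 0.88 in omental, 0.68 in perirenal and 0.62 in subcutaneous fat, while its sternal difference of -0.10 was not called and the change differed between the depots (adjusted p = 0.00751). ANGPT1, which steadies vessels through TEK, rose by 0.50 in subcutaneous fat, and TEK itself by 0.55 in omental fat from a mean of 3.04.

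Pericyte and smooth muscle markers, 10 of 13 measured, included 3 that were higher over the depots (20.6% of all probe sets), the largest TAGLN, an actin-binding protein of smooth muscle, with 0.60. Of 10 measured angiogenesis inhibitors and matrix factors 5 were higher over the depots, beside the same 20.6%. SERPINF1, which encodes an inhibitor of vessel growth, rose by 1.42 in sternal and 1.05 in subcutaneous fat. At 28 days it was lower in perirenal fat than in the other depots by -1.48 and higher in subcutaneous fat by 1.32. Perirenal fat had the highest and subcutaneous fat the lowest VEGFA level at that age, whereas in sternal fat both genes rose with age, VEGFA by 0.99. A link between SERPINF1 and VEGFA was not tested. None of the 3 measured platelet genes was called between the ages. Of the 6 measured partners of VWF protein LRP1, a clearance receptor, had the largest change, with 1.01 in omental and 1.10 in subcutaneous fat.

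**Figure D5:**
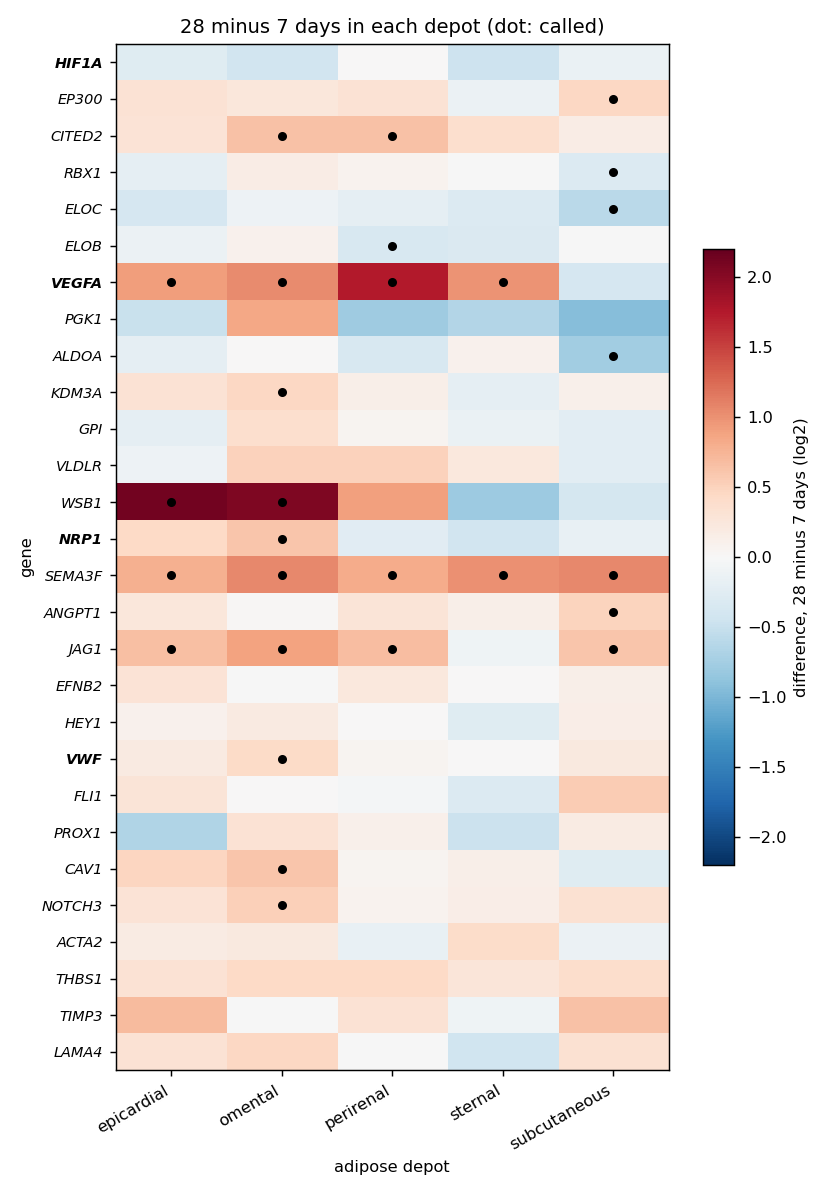
Difference in log2 expression between 28 and 7 days (colour, 28 minus 7 days) in the 5 depots for the 4 genes (bold) and the listed genes with a mean of at least 4, ordered by role, with a dot where called. Of 28 genes shown SEMA3F was called in all 5 depots, VEGFA and JAG1 in 4 each, and HIF1A in none.

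Across all 49 arrays, HIF1A and VEGFA had a Pearson's r of -0.13, with -0.23 over the 10 group means and 0.22 over deviations from the group means. VEGFA and VWF had r = 0.40 over the arrays and 0.58 over the group means, but 0.00 over deviations from the group means. NRP1 and VWF had r = 0.39 over the arrays and 0.11 within groups. The arrays share depots and ages and may share lambs, so these values are descriptions. The probe sets most like HIF1A over the arrays were BZW1 (r = 0.82), UTP18 (0.71), PON2 (0.71) and SCD (0.70). For VEGFA they were EIF4G2 (0.79), SON (0.79), UBA1 (0.79) and RBM5 (0.79). Likeness was weaker for NRP1, with LPCAT3 (0.63), PBX2 (0.62), PXN (0.60) and EXOC6B (0.58), and for VWF, with CCAR2 (0.73), ZNF696 (0.70), CIRBP (0.68) and FAM193B (0.67). Of these 8 genes PBX2 and FAM193B had a mean of at least 4.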

How the data were processed

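The authors hybridised sheep RNA to human Affymetrix U133 Plus 2.0 arrays and deposited log2 values that, per the submitters' notes and methods, were normalized with GCRMA in the affy package. Their versions: not given in the sources used here. Gene symbols came from the platform annotation, in which 9780 of 10273 probe sets had 1 symbol, 6 several and 487 none. The deposited values were fitted with limma 3.58.1 in R 4.3.3, over the 5 depots within each age, and over all 10 groups for the change with age. P-values were adjusted by the Benjamini-Hochberg method over all 10273 probe sets within each comparison, and a call needed an adjusted p of at most 0.05. Exact permutation tests used scipy 1.17.1 in Python 3.11.15. For each gene the 4 probe sets with the highest correlation were named. From the lists of pathway members, those called in a comparison described were named, at most the 6 largest per comparison and list, and from the marker lists at most 3 of the highest mean. EPAS1, PGF, FLT1, PGK1, CKM, UCP1 and FABP4 fall outside this rule and were chosen after their values were seen. The 4 genes and the lists were chosen with earlier results of these data known. Alternatives were another normalization between arrays, a filter on the mean, array weights, the 2 groups alone, a replicate block, leaving out arrays 1 at a time, and leaving out 9 arrays with muscle RNA (CKM above 4 outside epicardial fat). The fits were tested on simulated data. Promoter motifs were not analysed here. The methods describe depots that share animals, but the replicate numbers are not defined as animals. Deviations of same-numbered arrays correlated above 0.1 in 12 of 39 pairs at 28 days (median 0.06) and in 6 of 33 at 7 days (median 0.05), with a median of -0.01 for other pairs at both ages. Pairing was therefore not settled, and the fits hold no block.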

Additional observations from a re-analysis of the deposited data

Results flagged for a closer look

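Of 39 sets, each of 1 gene in 1 group of 4 or 5 arrays, 5 held an array far from the others of its group, where chance flags about 1 in 20. NRP1 in omental fat was highest on array M at 28 days, with 5.58 against 4.54 on the nearest array, and lowest on array G at 7 days, with 3.42 against 4.06. In perirenal fat at 28 days NRP1 was highest on array K, with 4.44 against 4.25. In sternal fat at 7 days array F was lowest both for NRP1, with 4.13 against 4.22, and for VWF, with 2.49 against 2.81. Apart from arrays M and G these are steps between values near the most frequent or the lowest signal.

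For VEGFA the change with age differed between the depots (F test, adjusted p = 7.96e-05, limma). It exceeded that of the other depots by 1.11 in perirenal fat (adjusted p = 0.00569) and fell short by -1.54 in subcutaneous fat (adjusted p = 0.000171). For NRP1 the change also differed (adjusted p = 0.0339), a call that leaving out omental array G of 7 days or sternal array J or O of 28 days ended (largest adjusted p = 0.0644).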

How the results depend on the processing

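The rises of VEGFA in omental, perirenal and sternal fat and over the depots, and its F test at 28 days and for the change with age, kept direction and call under every alternative run, as did the F tests of HIF1A and its average fall. The replicate number as a fixed block was not run for changes with age. Leaving out arrays with CKM above 4 removed no omental or perirenal array, so it could not move the differences in these depots. Without any 1 of the 49 arrays all VEGFA calls between the ages held. When the 2 groups were fitted alone, VEGFA in epicardial fat (0.92, adjusted p = 0.0552) and NRP1 in omental fat (0.61, adjusted p = 0.195) were no longer called. With only the brighter probe sets kept (mean of 4 or more), where fewer are tested, VEGFA was called between depots at 7 days (adjusted p = 0.0222), and HIF1A was called lower in omental (-0.41, adjusted p = 0.0468) and sternal fat (-0.46, adjusted p = 0.0282). Quantile normalization called the same HIF1A changes at -0.53 in omental and -0.52 in sternal fat, and turned HIF1A in perirenal fat to -0.24 and NRP1 over the depots to -0.11. It ended the calls of NRP1 and VWF between depots at 28 days (adjusted p = 0.489 and 0.139), of VWF at 7 days (0.112), and of the NRP1 change between depots (0.196). It also ended those of NRP1 in omental fat (difference 0.24, adjusted p = 0.608), VWF in omental fat (difference 0.24, adjusted p = 0.197) and VWF over the depots (difference 0.11, adjusted p = 0.12). Array weights left NRP1 and VWF between depots at 28 days at adjusted p = 0.0519 and 0.0533, and VWF in sternal fat at -0.00084. Without the 9 arrays with CKM above 4, the adjusted p was 0.331 for NRP1 and 0.200 for VWF between depots at 28 days, 0.0568 for VWF at 7 days and 0.188 for the NRP1 change between depots. VWF over the depots was 0.18 (adjusted p = 0.063), VWF in sternal fat -0.019, and HIF1A in sternal fat -0.73 (adjusted p = 0.0448). Leaving out the arrays with CKM above 4 kept only array F of subcutaneous fat at 7 days and arrays I and M of sternal fat at 28 days. The cause of the changes under these alternatives was not tested.

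Leaving out 1 array at a time gave adjusted p-values between depots of 0.0488 to 0.146 for VEGFA at 7 days (called without perirenal array A), 0.00886 to 0.0858 for VWF at 7 days (lost without perirenal array A, C or G), 0.00959 to 0.0824 for NRP1 at 28 days (lost without sternal array J or O) and 0.0109 to 0.054 for VWF at 28 days (lost without sternal array I or M). The NRP1 change between depots ranged from 0.0159 to 0.0644. Differences between the ages ranged from -0.54 to -0.32 for HIF1A in omental fat (called without array D of 7 days), 0.37 to 0.70 for NRP1 in omental fat, -0.059 to 0.056 for HIF1A and -0.066 to 0.158 for VWF in perirenal fat, -0.064 to 0.040 for VWF in sternal fat and -0.0050 to 0.071 for NRP1 over the depots.

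Whether the replicate numbers mark animals is not stated. With the replicate number as a block, the 8 F tests kept their side of the threshold and 24 of 30 single depot differences their call, while 6 lost it, such as sternal HIF1A at 28 days (-0.31, adjusted p = 0.0871). As a random block it changed no call. The correlation fitted within replicate numbers was 0.0013 at 7 days, 0.010 at 28 days and 0.011 over both ages. With values this small the fit could hardly differ from the one without a block.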
